A study of Mus musculus with 9 samples.

Results

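The genes described here are those in which cells sorted from lymphoid tissue differed from brain microglia in a shared direction, whatever their lineage. A gene was taken when T cell zone macrophages (TZM) and CD8a+ dendritic cells (DC) were each called against microglia with differences of the same sign, and genes were ranked by the smaller of the 2 differences. Of 19938 genes measured, 844 met this rule, with 369 higher and 475 lower in both lymphoid populations. Total RNA of the 3 populations was hybridised to Affymetrix mouse gene arrays, with 3 arrays labelled as biological replicates for each population and 9 in all. All mice had the genotype CX3CR1 gfp+/-, so all 3 populations share it. In this genotype a green fluorescent protein (GFP) reporter stands in 1 copy of the fractalkine receptor gene. TZM came from lymph nodes and were sorted as GFP-high, MertK+, CD11b+ and CD169- cells. Microglia were the GFP-high, CD11b+ and CD45+ cells of the brain, and DC were sorted as CD8a+ cells high in CD11c and MHC class II and lacking CD64. For the DC the sample fields name the lymph node and the sorting protocol the spleen, and both are lymphoid organs. Age, sex and the number of animals behind each array were not given in the sources used here, so the p-values measure only the spread between these arrays. The brain was sampled through a single population, so residence in the brain, microglial identity and the handling of brain tissue cannot be told apart in any value below.

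Lymph nodes and spleen are sites where antigen-presenting cells meet lymphocytes, and the cells living there are exposed to interferons, chemokines and dying lymphocytes. Microglia are macrophages seeded into the brain before birth, where transforming growth factor beta (TGF-beta) maintains a set of identity genes under transcription factors such as SALL1 and MEF2C. TZM take up apoptotic cells in the zone where T cells are held. CD8a+ DC take up dying cells and present their antigens to CD8 T cells. One of these populations of lymphoid tissue is a macrophage and the other a DC, and they are treated here as different lineages.

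The cell labels were first set against defining markers. The macrophage growth factor receptor gene Csf1r averaged 11.22 ± 0.09 (SD, n = 3) over the TZM arrays, 5.21 ± 0.33 over DC and 12.16 ± 0.03 over microglia, on the log2 scale of the deposited values. The chemokine receptor gene Xcr1, a marker of CD8a+ DC, averaged 4.40 ± 0.13 over the TZM arrays, 10.71 ± 0.05 over DC and 3.93 ± 0.07 over microglia, and the microglial regulator Sall1 was high in microglia alone. None of the measured markers of neurons (14 genes), astrocytes (14) or oligodendrocytes (15) was higher or lower in both lymphoid populations. The log2 of the summed level of the oligodendrocyte markers was nevertheless highest in microglia. It ran from 11.011 to 11.115 in microglia, 10.267 to 10.329 in TZM and 9.219 to 9.457 in DC. For the neuron and astrocyte markers the summed level was highest in TZM. Ttr, the major secreted product of the choroid plexus, was at 12.15, 5.48 and 11.83 in microglia replicates 1, 2 and 3, and replicate 2 also had lower levels of genes of macrophages at the brain's borders, with Pf4 at 9.11, 7.05 and 8.72 and Mrc1 at 8.96, 7.21 and 8.54. Across the 13 border macrophage markers the log2 of the summed level ran from 10.1 to 11.3 in microglia, 11.4 to 11.8 in TZM and 8.08 to 8.26 in DC. In TZM, markers of other cells ranged more widely, with salivary gland genes at a log2 summed level of 10.2 to 12.6 (7.40 to 7.52 in DC and 7.29 to 7.37 in microglia). The X-inactivation transcript Xist was at 4.16, 4.36 and 8.26 in TZM against at least 9.95 in every DC and microglia array. The median level of the 4 measured sex-linked genes ran from 4.96 to 5.46 in TZM, 3.33 to 3.49 in DC and 3.21 to 3.41 in microglia. TZM thus differed from both other groups in sex-linked genes, and the part of the sex of the mice in the results was not tested. None of the 11 salivary or 4 sex-linked genes was among the 844. The rule also asks for a difference in DC, so a gene changed in TZM alone was left out whatever its source. For genes that also differed in DC, the part of other cells in the TZM arrays was not tested. Replicate 2 lay at least 1 unit below both other microglia arrays in 11 of the 369 genes higher in both and in 9 of the 475 lower in both, and the other microglia arrays did so in 0. The part of the choroid plexus, of border macrophages and of oligodendrocytes in the results was not tested.

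**Figure D1:**
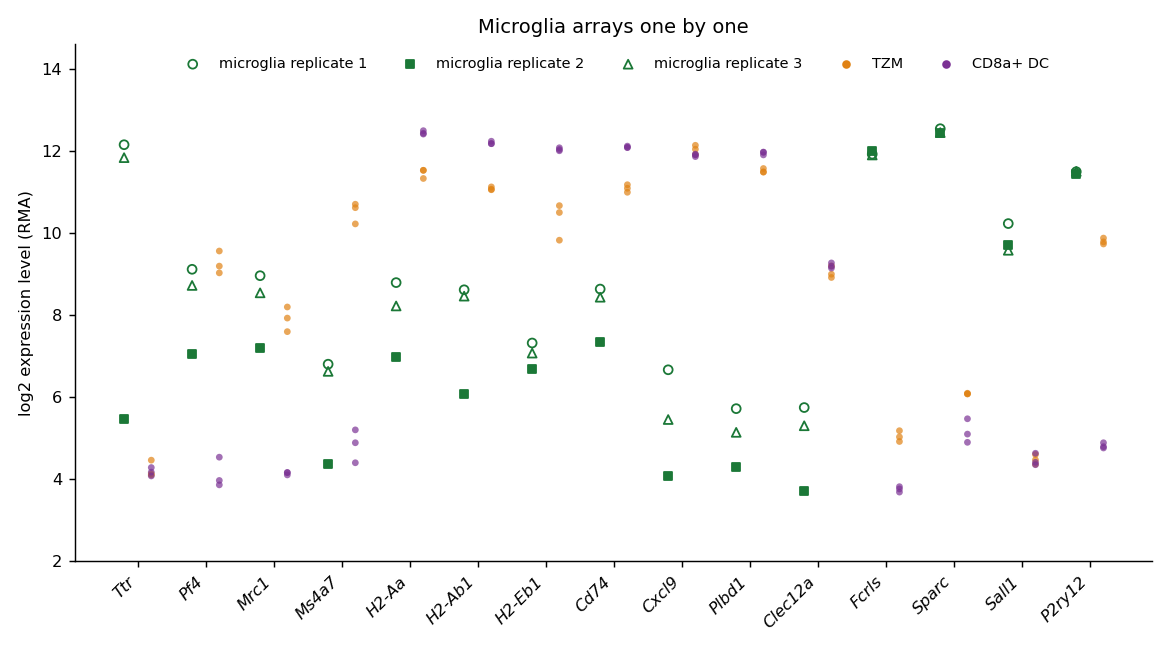
Level of 15 genes (log2 RMA value, vertical axis) in each array: open circles, filled squares and open triangles are microglia replicates 1, 2 and 3, and small filled points are the 3 TZM and 3 DC arrays. Replicate 2 sits below the other microglia arrays for Ttr (5.48) and for H2-Ab1 (6.08), while the 3 microglia arrays lie together for Fcrls, Sparc and P2ry12.

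On the mean of TZM and DC against microglia, 907 genes (4.55% of all tested) were called higher and 790 (3.96%) lower, where a call needed limma's Benjamini-Hochberg adjusted p under 0.05 and a log2 difference of at least 1, a doubling or more. Under the stricter rule that each population be called by itself, 369 genes were higher (1.85% of all tested) and 475 lower (2.38% of all tested), and all of them were also called on the mean. Of the genes higher on the mean but left out, 352 were called against microglia in DC only and 181 in TZM only, so many genes with a high mean were called in 1 lineage alone. Because both differences use the same microglia arrays, this count is a description and not a test. In these sorted but bulk samples, a lower level can come from fewer cells that carry a transcript or from less of it per cell, and the arrays cannot tell these apart. Among the genes higher in both, the smaller difference had a median of 1.59 and reached 7.35, and it was at least 3 for 49 genes. Among those lower in both, it had a median of -1.44 and reached -6.89, and was at or beyond -3 for 47. Microglia averaged under a log2 level of 6, in the dim part of the scale, for 186 of the 369, and both lymphoid populations did for 209 of the 475, so many of these genes were dim on one side of the comparison.

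**Figure D2:**
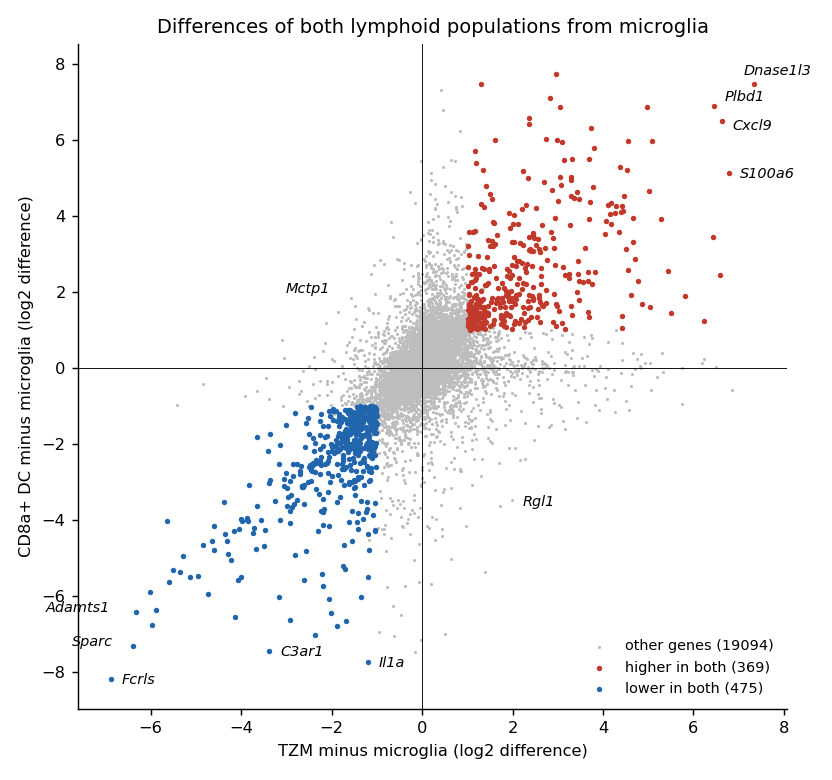
Each point is 1 of 19938 genes, placed by its log2 difference of TZM from microglia (horizontal axis) and of DC from microglia (vertical axis). Red points are the 369 genes higher in both and blue points the 475 lower in both, with Dnase1l3 and Fcrls at the far ends.

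Dnase1l3 led the genes higher in lymphoid tissue cells. It encodes a secreted nuclease that digests DNA carried on membrane particles and chromatin released by dying cells. Its level was 11.83, 11.56 and 11.62 in TZM, 11.82, 11.80 and 11.73 in DC, and 4.48, 4.47 and 4.01 in microglia. The 6 lymphoid arrays lay close together and far above the microglia arrays, with differences of 7.35 (SE 0.13, adjusted p = 1.3e-08) for TZM and 7.46 (SE 0.13, adjusted p = 4.5e-09) for DC. Next came Cxcl9, an interferon-gamma-induced chemokine that attracts activated T cells, at 12.04, 12.13 and 11.90 in TZM, 11.90, 11.92 and 11.86 in DC, and 6.67, 4.07 and 5.46 in microglia. The lymphoid arrays were again alike, whereas the microglia arrays spread over more than 2 units, with replicate 2 lowest. Plbd1, a lysosomal phospholipase B-like protein, followed with a smaller difference of 6.46 (SE 0.29, adjusted p = 1.4e-06) and read 11.57, 11.48 and 11.49 in TZM, 11.90, 11.97 and 11.96 in DC, and 5.72, 4.30 and 5.14 in microglia. The calcium-binding protein gene S100a6 (smaller difference 5.14, SE 0.12) and P2ry14, a receptor for extracellular UDP-glucose (5.09, SE 0.10), completed the 5 genes beyond 5 units. P2ry14 averaged 9.33 ± 0.15 over the TZM arrays, 10.20 ± 0.02 over DC and 4.25 ± 0.16 over microglia.

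Anpep, the aminopeptidase CD13, had a smaller difference of 4.97, Cd44, the hyaluronan receptor, one of 4.65, and Adgre5, the adhesion receptor CD97, one of 4.55. Cd44 was at 9.78, 9.45 and 9.73 in TZM, 9.32, 9.30 and 9.26 in DC, and 4.49, 4.55 and 4.90 in microglia, so no lymphoid array came near a microglia array. The chemokine receptor Cxcr4, which guides leukocytes towards CXCL12, averaged 11.12 ± 0.12 over the TZM arrays, 10.81 ± 0.04 over DC and 6.68 ± 0.05 over microglia, a smaller difference of 4.13 (SE 0.07, adjusted p = 4.5e-09). Outside the surface proteins, Kynu, kynureninase of tryptophan breakdown, stood at means of 8.83 ± 0.11, 8.82 ± 0.20 and 4.56 ± 0.43 in TZM, DC and microglia, and Iqgap1, a scaffold of the actin cortex, in the same order at 10.52 ± 0.09, 9.79 ± 0.03 and 5.85 ± 0.18. Bhlhe40, a transcriptional repressor of activated myeloid cells, rose by 5.28 in TZM and 3.91 in DC. Its relative Bhlhe41 fell by 4.94 and 5.47, so this pair of related genes moved in opposite directions.

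**Figure D3:**
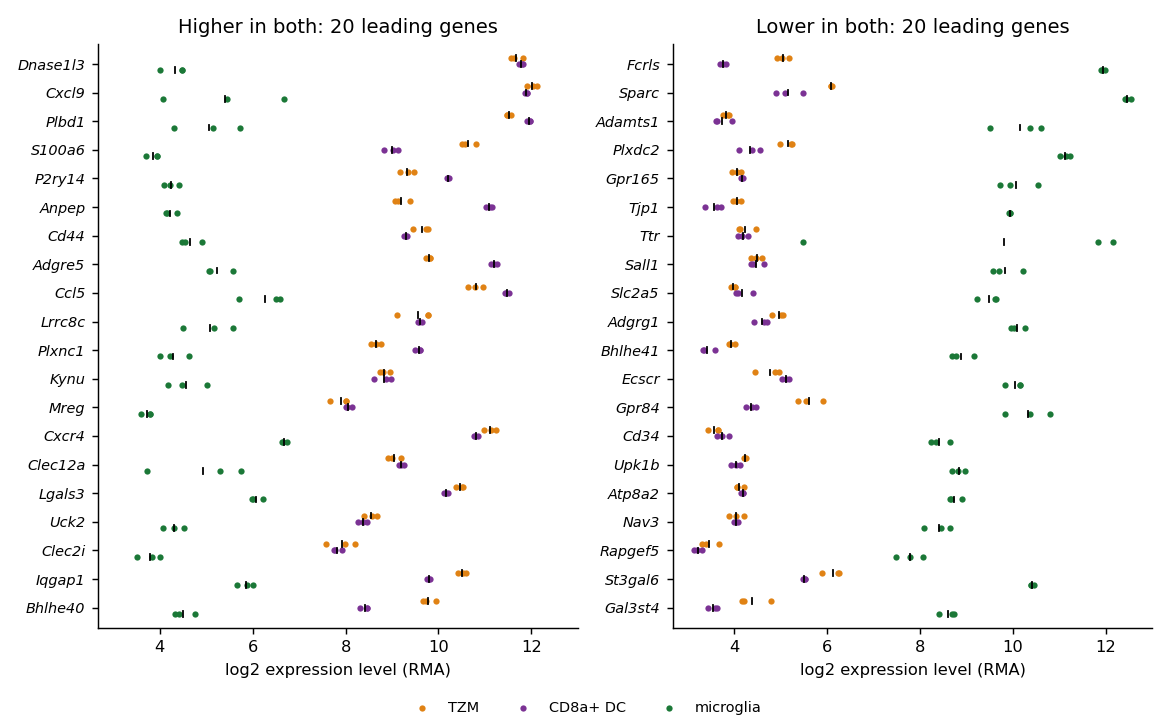
Log2 level (horizontal axis) of the 20 leading genes in each direction, with 1 point per array and a black tick at each group mean; orange is TZM, purple DC and green microglia. In every row the 6 lymphoid arrays lie apart from the 3 microglia arrays, although Ttr spans 5.48 to 12.15 within microglia. Such separation was a condition for choosing these genes, and all 369 genes higher and all 475 genes lower in both showed it.

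Antigen presentation through MHC class II, which displays peptides to CD4 T cells, was higher in both populations for 5 of 14 measured genes of the pathway and lower for 1, against 1.85% and 2.38% over all genes. Over the 7678 genes that reached a level of 6 in at least 3 arrays, a better match for lists of expressed genes, the same shares were 4.69% and 5.24%. H2-Aa, the class II alpha chain, was at 11.52, 11.32 and 11.52 in TZM, 12.41, 12.49 and 12.43 in DC, and 8.79, 6.98 and 8.22 in microglia. All microglia arrays were below all lymphoid arrays, and the smaller difference was 3.46 (SE 0.38, adjusted p = 0.00028). The other members were the beta chains H2-Ab1 and H2-Eb1 (smaller differences 3.36 and 3.30), the invariant chain Cd74 (2.94) and Ifi30, a thiol reductase that prepares antigens for loading. DC were sorted on class II protein, so for them these genes are no finding, while the TZM gate did not use it. H2-Ab1 was uneven in microglia, at 8.61, 6.08 and 8.46, and its mean difference of 3.92 was 3.10 without replicate 2 and 5.55 with replicate 2 as the only microglia array. The median difference of the 14 genes from microglia was 0.23 in TZM and 2.15 in DC, so the list as a whole leaned to DC. Lgmn, a lysosomal protease that cuts antigens, went the other way.

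Class II promoters carry a conserved module whose X2 box resembles a cAMP response element and whose Y box is an inverted CCAAT box, read by the CIITA-dependent enhanceosome. Of the 6 class II list members, 4 had an entry in the RefSeq promoter table of build GRCm38.p6, and 3 of these (75%) held CCAAT on either strand within 250 bases before the start: H2-Aa, H2-Eb1 and Lgmn, the last of which is no class II chain and was lower in both. The same was true of 38.9% of all 15562 genes with a promoter, so CCAAT by itself is common. The 100 bases before the start are shown for both printed class II genes, with the CCAAT boxes (CCAAT or its reverse complement ATTGG) and the TGACGTCA of H2-Aa in capitals. The H2-Aa stretch is chr17:34287824-34287923 on the minus strand and the H2-Eb1 stretch chr17:34305767-34305866 on the plus strand.
H2-Aa: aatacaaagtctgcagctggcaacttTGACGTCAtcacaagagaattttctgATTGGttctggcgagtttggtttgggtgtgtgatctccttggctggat
H2-Eb1: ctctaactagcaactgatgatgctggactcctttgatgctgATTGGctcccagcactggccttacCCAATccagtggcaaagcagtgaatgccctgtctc
In H2-Aa the TGACGTCA began 74 bases before the start and the ATTGG 48 bases before it. TGACGTCA stood in 2.34% of all promoters and in 3 of the 293 found for genes higher in both (1.02%), one of which was H2-Aa, against 15 of 363 for genes lower in both (4.13%).

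MHC class I loading genes were higher in both for 5 of 15 and lower for 0. Tap1, which pumps peptides into the endoplasmic reticulum, was at 8.26, 7.73 and 8.26 in TZM, 9.01, 9.01 and 8.89 in DC, and 6.13, 5.91 and 6.11 in microglia, with a smaller difference of 2.04 (SE 0.14, adjusted p = 2.0e-05). The immunoproteasome subunit Psmb9 had a smaller difference of 1.49, the proteasome activator Psme2 one of 1.15 and the non-classical molecule H2-M3 one of 1.10. The fifth, Psmb8, lay at the minimum itself and was no longer a member under 7 other settings, and H2-M3 was lost without DC replicate 1 or microglia replicate 2. DC were called above TZM for Psmb9 and Psmb8.

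Of 30 interferon-stimulated genes 5 were higher in both (Irf7, Sp100, Ifitm3, Zbp1 and Usp18) and 0 lower, with a median mean difference of 0.56 against 0.01 over all genes. The list's median difference from microglia was 1.08 in TZM and 0.20 in DC, so as a whole it leaned to TZM. Irf7, the amplifier of type I interferon production, was at 7.72, 7.54 and 7.64 in TZM, 7.44, 7.56 and 7.20 in DC, and 4.62, 4.49 and 4.98 in microglia. TZM and DC overlapped and both were above microglia, with differences of 2.94 (SE 0.14, adjusted p = 1.9e-06) for TZM and 2.70 (SE 0.14, adjusted p = 1.7e-06) for DC. Ifitm3, which blocks virus entry, had differences of 1.89 and 1.93. Of 8 interferon-inducible GTPases, which attack vacuoles that hold microbes, 3 were higher in both, namely Gbp8 (smaller difference 2.52), Iigp1 (1.78) and Gbp5 (1.25). In all of these GTPases TZM were above DC, by 1.10 to 1.69. Among the signalling genes of the pathway only Irf7 rose in both out of 18, and Socs3, a feedback inhibitor of cytokine receptors, fell.

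An interferon-stimulated response element (ISRE) was searched as GAAA, any 2 bases and GAAA on either strand within 250 bases before the start. It was found in 22 of the 293 genes higher in both that had a promoter entry (7.51%), in 11 of 363 lower in both (3.03%) and in 3.40% of all 15562. Among the 5 interferon-stimulated members, 3 had an entry and 0 held these letters. Gbp5 held one 165 bases before its start, and its stretch chr3:142496734-142496833 on the plus strand is given with the match in capitals; it was chosen for display after its match was seen.
Gbp5: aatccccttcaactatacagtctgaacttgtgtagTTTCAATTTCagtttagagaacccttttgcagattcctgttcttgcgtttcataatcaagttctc
A match describes the letters alone, and whether any factor binds there was not measured.

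Chemokines went both ways. Of 23 measured, 5 were higher in both (Cxcl9, Ccl5, Ccl22, Cxcl16 and Ccl19) and 5 lower (Ccl9, Ccl3, Ccl4, Ccl24 and Ccl6). Ccl5, a chemokine for T cells and monocytes, was at 10.63, 10.97 and 10.80 in TZM, 11.53, 11.43 and 11.45 in DC, and 6.49, 5.70 and 6.60 in microglia, well apart in both lineages (smaller difference 4.53, SE 0.21, adjusted p = 1.8e-06). Ccl22, which draws cells that carry CCR4 such as regulatory T cells, had a smaller difference of 3.42. Ccl19, a ligand of CCR7 that stromal cells of the T zone also make, was higher by 2.90 in TZM and 1.19 in DC, and it was no longer called with microglia replicate 2 as the only microglia array. On the other side Ccl9, a ligand of CCR1, averaged 6.94 ± 0.04 over the TZM arrays, 4.93 ± 0.09 over DC and 9.23 ± 0.29 over microglia.

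Of 19 chemokine receptors 3 were higher in both and 2 lower. Ccr7, which brings cells into the T cell zone, was at 9.02, 8.91 and 9.04 in TZM, 10.93, 10.93 and 10.98 in DC, and 5.20, 6.72 and 5.89 in microglia. Both lymphoid populations were above all microglia arrays, with a smaller difference of 3.06 (SE 0.31, adjusted p = 0.00018). Ccr2, a receptor of recruited monocytes, was near the minimum (smaller difference 1.03) and lost under 4 other settings. Cx3cr1, on whose reporter TZM and microglia were sorted, fell by 1.87 in TZM and 6.78 in DC, and the atypical receptor Ccrl2 fell by 1.38 and 2.18, a call that ended when replicate 2 was the only microglia array.

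Co-stimulation and maturation genes, which tell T cells how to respond to antigen, were higher in both for 8 of 24 and lower for 0. Cd274, the inhibitory ligand PD-L1, was at 8.18, 7.99 and 7.93 in TZM, 8.30, 8.19 and 8.39 in DC, and 5.61, 5.33 and 5.89 in microglia, alike in the lymphoid populations and below them in microglia (smaller difference 2.43, SE 0.14, adjusted p = 5.7e-06). Cd200, a ligand that restrains myeloid cells through CD200R, had differences of 4.17 and 3.77, and Cd40, through which T helper cells license antigen-presenting cells, 2.15 and 2.36. Slamf7 and Slamf8, receptors of the SLAM family, rose by at least 3.74 and 2.46. Il12b, the p40 chain of IL-12 and IL-23, was called in both but not alike, and averaged 6.35 ± 0.00 over the TZM arrays, 10.55 ± 0.12 over DC and 5.15 ± 0.21 over microglia. Il12rb2, which encodes a receptor chain for IL-12, rose by 3.45 in TZM and 2.46 in DC.

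The list with the largest share of genes higher in both was that of S100, annexin and galectin genes, calcium- and sugar-binding proteins of membranes and the cytosol, with 11 of 22 higher and 1, Anxa3, lower. Its median mean difference was 2.0, and S100a6, Lgals3, S100a11 and Anxa5 led it. Lgals3, galectin-3, was at 10.51, 10.38 and 10.54 in TZM, 10.16, 10.21 and 10.12 in DC, and 5.98, 6.21 and 6.01 in microglia. The lymphoid arrays stood apart from microglia and close to each other (smaller difference 4.10, SE 0.08, adjusted p = 6.6e-09). Anxa5, which binds phosphatidylserine, was in the same order at 10.63 ± 0.12, 9.85 ± 0.08 and 7.39 ± 0.24. Of 24 actin and motility genes 6 were higher and 0 lower. The intermediate filament gene Vim rose by 4.67 in TZM and 3.31 in DC, the LIM protein Crip1 by 3.79 and 4.76, and Tmsb10, a thymosin that binds actin monomers, by 1.88 and 2.60.

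Adhesion genes went both ways, with 4 of 26 higher (Cd44, Itgax, Vcam1 and Itgal) and 8 lower in both. Vcam1, a ligand for lymphocyte integrins, rose by 5.05 in TZM and 1.59 in DC. Itgax, CD11c, was part of the DC gate and, in TZM, was at 8.30, 8.14 and 8.30 against 5.48, 5.17 and 5.46 in microglia. The junctional molecules F11r and Jam2 fell by at least 3.99 and 3.63. Jam2 averaged 4.63 ± 0.05 over the TZM arrays, 4.66 ± 0.05 over DC and 8.28 ± 0.23 over microglia, as low in one lymphoid population as in the other. Itgam, the gate antigen CD11b of TZM and microglia, fell by 2.92 in TZM and 6.62 in DC.

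Lectin receptors were higher for 5 of 26 and lower for 2. Clec12a, a receptor for uric acid crystals and dead cells, was at 9.20, 8.99 and 8.91 in TZM, 9.27, 9.14 and 9.19 in DC, and 5.75, 3.71 and 5.30 in microglia, so the lymphoid populations agreed and microglia replicate 2 was again lowest. Ly75, the endocytic receptor DEC-205, rose by 3.30 and 4.53. Siglece and Siglech, sialic acid receptors of myeloid cells, fell by at least 3.49 and 3.04. In lipid handling 4 of 23 rose and 0 fell. The median difference of this list from microglia was 1.34 in TZM and 0.05 in DC, so as a whole it leaned to TZM. The lipoprotein receptor gene Scarb1 averaged 8.30 ± 0.21 over the TZM arrays, 8.15 ± 0.05 over DC and 6.23 ± 0.13 over microglia. The fatty acid binding protein Fabp5 rose by 4.43 in TZM but 1.36 in DC, and the scavenger receptor Cd36 by 1.34 and 5.20, a call that ended without microglia replicate 2.

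Among nucleic acid genes 3 of 17 rose and 1 fell. Beside Dnase1l3 these were Samhd1, which depletes nucleotides for DNA synthesis (1.23 in TZM and 1.81 in DC), and the DNA-binding Ifi205, which varied between 4.86 and 6.97 within TZM and was not called when replicate 2 was the only microglia array. Tlr7, the endosomal sensor of single-stranded RNA, fell by 1.17 in TZM and 4.79 in DC. Of 29 cell cycle genes 3 rose and 0 fell, and the median difference of the list from microglia was 0.26 in TZM and 1.27 in DC. Bub1b, of the spindle checkpoint, was at 6.77, 6.81 and 6.95 in TZM, 6.78, 6.45 and 6.29 in DC, and 4.52, 4.45 and 4.18 in microglia, and Top2a, which untangles DNA, rose by 1.58 and 3.80 but was lost with probe sets averaged. The third, Ccna2, lay just inside the minimum at 1.01 and was lost under 6 other settings. Of 36 transcription factors of tissue macrophages and DC 4 rose (Bhlhe40, Spic, Runx3 and Nfil3) and 5 fell. Those that fell were Sall1, Bhlhe41, Mef2c, Ets1 and Klf4, and Sall1, Bhlhe41 and Mef2c also belong to the microglia identity list. Spic, known from iron-recycling macrophages, averaged 10.09 ± 0.19 over the TZM arrays, 7.11 ± 0.30 over DC and 3.66 ± 0.33 over microglia.

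Marker genes of other cells also appeared among the genes higher in both. Of 17 T cell markers 2 were members, Icos and Cd4. Cd4 was at 11.06, 10.59 and 10.83 in TZM, 6.84, 6.76 and 6.68 in DC, and 5.44, 5.02 and 5.50 in microglia, while the T cell receptor subunit Cd3d was at 4.81, 4.78 and 5.10 in TZM, in the dim part of the scale. The log2 summed level of the 17 T cell markers was 11.7 to 11.9 in TZM, 9.54 to 9.72 in DC and 8.72 to 8.90 in microglia, and only 3 of them reached a level of 6 in at least 3 arrays. Of 15 B cell markers, Spib was higher in both and Bank1 lower, the latter lost when any microglia array was left out. The monocyte markers Plac8 and Ccr2 (2 of 9) were members as well, with Plac8 at 5.53, 7.50 and 6.14 in TZM, 10.60 ± 0.05 in DC and 4.03 ± 0.06 in microglia, a call that ended with replicate 2 as the only microglia array. The part of T cells, B cells and monocytes in the results was not tested.

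**Figure D4:**
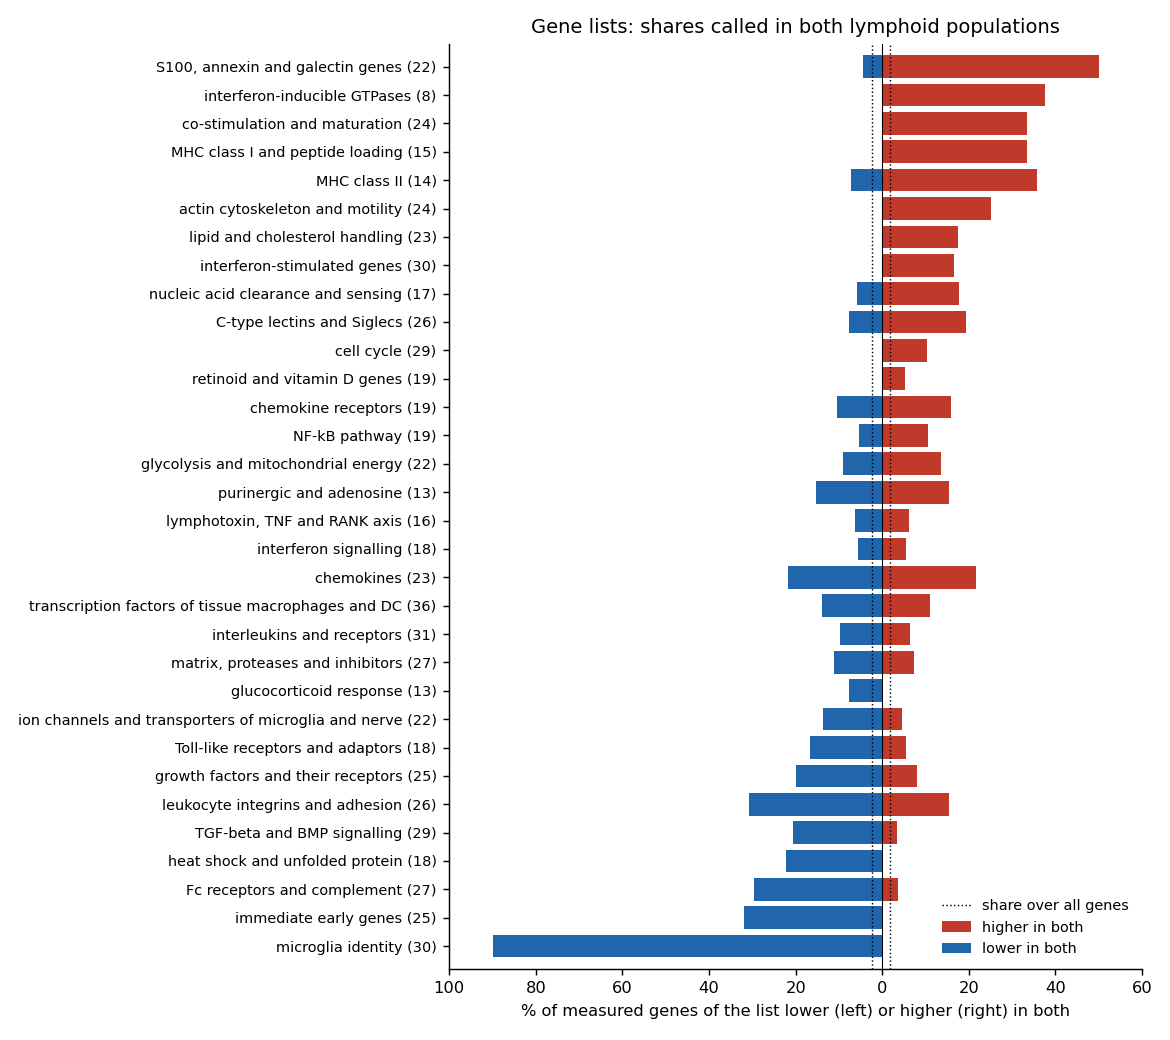
Share of each gene list that was higher (red, to the right) or lower (blue, to the left) in both lymphoid populations, with the number of measured genes in parentheses; the dotted lines mark the shares over all genes, 1.85% and 2.38%. Microglia identity genes reach 90.0% on the left and S100, annexin and galectin genes 50% on the right.

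Genes lower in both lymphoid populations were led by Fcrls, an Fc receptor-like protein found in mouse microglia. It was at 5.03, 4.92 and 5.18 in TZM, 3.69, 3.77 and 3.82 in DC, and 11.92, 11.98 and 11.90 in microglia, so the microglia arrays were nearly equal and far above all others. It fell by 6.89 in TZM (SE 0.08, adjusted p = 2.6e-09) and by 8.17 in DC (SE 0.08, adjusted p = 3.1e-10). A stretch of its promoter, chr3:87263575-87263674 on the minus strand, is given to set beside the class II genes, with its CCAAT box in capitals 115 bases before the start.
Fcrls: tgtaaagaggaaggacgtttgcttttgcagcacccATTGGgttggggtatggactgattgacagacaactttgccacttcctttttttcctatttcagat
CCAAT was as common among genes lower in both (37.2%) as among those higher in both (36.2%). A loose pattern for a MEF2 site, CTA, any 4 bases and TAG on either strand, was found in 23 of 363 promoters of genes lower in both (6.34%). It stood in 1.71% of those higher in both and in 3.66% of all. The 4 middle bases were left free, so a match need not be a MEF2 site. Among the 22 microglia identity members with an entry only Cx3cr1 held this pattern.

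Of 30 microglia identity genes 27 were lower in both and 0 higher, with a median mean difference of -4.00. This list was drawn from what is known of microglia, so its direction is a check of the labels more than a result. Some of its members, such as Fcrls, Sparc, Slc2a5, Siglech, Tgfbr1, P2ry12 and Cx3cr1, were counted in other lists too. Sparc, a matricellular protein, was at 6.08, 6.10 and 6.08 in TZM, 5.10, 4.90 and 5.47 in DC, and 12.54, 12.42 and 12.44 in microglia. Sall1, which keeps microglia from an inflammatory state, was at 4.37, 4.60 and 4.47 in TZM, 4.36, 4.41 and 4.63 in DC, and 10.23, 9.70 and 9.58 in microglia. TZM and DC overlapped for Sall1, and their difference of 0.01 had a 95% interval of -0.36 to 0.39. Slc2a5, a fructose transporter, fell by at least 5.32 and the adhesion receptor Adgrg1, GPR56, by at least 5.13. Not all identity genes were absent from TZM. P2ry12, the receptor through which microglia sense ADP, was at 9.73, 9.87 and 9.78 in TZM, 4.80, 4.76 and 4.89 in DC, and 11.49, 11.44 and 11.50 in microglia, so TZM lay between the other populations and fell by only 1.68 (SE 0.06, adjusted p = 4.6e-07).

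Adamts1, a secreted metalloprotease, averaged 3.83 ± 0.06 over the TZM arrays, 3.73 ± 0.19 over DC and 10.16 ± 0.57 over microglia. Tjp1, the tight junction scaffold ZO-1, was at 4.14, 4.04 and 3.98, at 3.37, 3.63 and 3.72, and at 9.93, 9.94 and 9.93 in these groups, and it fell by 5.88 in TZM. Cd34, a sialomucin of progenitors and endothelium, averaged 3.57 ± 0.12 over the TZM arrays, 3.75 ± 0.13 over DC and 8.41 ± 0.21 over microglia. Of the 14 endothelial and lymphatic markers 2 were members, Prox1 (5.48 ± 0.20 in microglia, in the dim part of the scale) and Lyve1, which was lost without microglia replicate 1 or 3 and without TZM replicate 3. Ttr fell by 5.59 in TZM, but its call was lost when any single array other than microglia replicate 2 was left out. Its mean difference of -5.61 was -7.78 without that replicate and -1.27 with it as the only microglia array. The border macrophage markers Stab1, Dab2 and Lyve1 were lower in both (3 of 13). Stab1, a scavenger receptor, was at 8.47, 8.41 and 8.64 in microglia and 6.34 ± 0.17 in TZM, while Dab2, an endocytic adaptor, was at 9.16, 7.80 and 8.96 and lost without microglia replicate 1 or 3 or any TZM array.

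TGF-beta and BMP signalling genes were lower in both for 6 of 29 and higher for 1. The receptor Tgfbr1 was at 10.25, 10.17 and 10.25 in TZM, 7.75, 7.68 and 7.39 in DC, and 11.67, 11.63 and 11.69 in microglia, a descent from microglia through TZM to DC with no overlap. Its fall was 1.44 (SE 0.09, adjusted p = 1.2e-05) in TZM and 4.05 in DC. The signal carrier Smad3 fell by 1.76 and 2.08, the inhibitor Smad7 by 2.47 and 2.56, and the BMP receptor Bmpr1a by 3.04 and 3.10. The gene that rose, Acvrl1, encodes the receptor ALK1 and lay at the minimum, and it was lost under 6 other settings.

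Fc receptor and complement genes fell in both for 8 of 27 and rose for 1, properdin (Cfp). The anaphylatoxin receptor C3ar1 was at 7.87, 8.16 and 7.76 in TZM, 3.95, 3.84 and 3.82 in DC, and 11.30, 11.27 and 11.35 in microglia. Its fall was 3.38 (SE 0.10, adjusted p = 1.2e-07) in TZM and 7.44 in DC, so the lymphoid populations also differed widely from each other. C5ar1, the receptor for C5a, fell by 2.82 and 4.91. Fcgr1, which encodes CD64, fell by 2.19 and 5.73, and its product was used to exclude cells from the DC gate. Of 13 purinergic genes P2ry14 and P2ry10 rose, while P2ry12 and Entpd1, the nucleotidase CD39, fell, so the family went both ways. Of 18 Toll-like receptor genes 3 fell, Cd14, Tlr13 and Tlr7. Tlr13, a sensor of bacterial ribosomal RNA, was even across lineages at 8.68 ± 0.17 in TZM and 8.69 ± 0.12 in DC, against 10.03 ± 0.06 in microglia. The gene that rose, Tlr12, which binds profilin of parasites, was lost under 8 other settings.

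Of 25 growth factor genes and their receptors 5 fell and 2 rose. Csf1, the growth factor of macrophages, was at 6.38, 6.20 and 6.37 in TZM, 5.32, 5.19 and 5.55 in DC, and 9.04, 8.50 and 9.24 in microglia, higher in every microglia array than in any lymphoid array (smaller difference -2.61, SE 0.18, adjusted p = 1.8e-05). The receptor Igf2r, which carries enzymes to lysosomes, rose by 3.16 in TZM and 2.45 in DC. Among interleukins and their receptors 2 of 31 rose and 3 fell. Il1a, an alarm cytokine, fell by 1.20 in TZM and 7.74 in DC, and this call ended with replicate 2 as the only microglia array.

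Immediate early genes, which respond within minutes to stimulation and to tissue digestion, were lower in both for 8 of 25 and higher for 0, with a median mean difference of -0.94. Atf3 was at 10.85, 10.63 and 11.06 in TZM, 10.94, 10.92 and 10.92 in DC, and 12.57, 12.51 and 12.49 in microglia, overlapping between the lymphoid populations and falling by 1.68 (SE 0.10, adjusted p = 7.4e-06) in TZM and by 1.60 (SE 0.10, adjusted p = 5.6e-06) in DC. Egr1 lay just inside the minimum, with a smaller difference of -1.01, and was lost under 4 other settings. Heat shock and unfolded protein genes were lower in both for 4 of 18 and higher for 0, among them Hsph1, a chaperone of the HSP110 family, at 8.98, 9.94 and 9.44 in microglia, 7.98 ± 0.41 in TZM and 8.03 ± 0.28 in DC. Brain and lymphoid tissue were digested and sorted separately, and the part of handling in these genes and in the rest was not tested. Of 13 glucocorticoid-responsive genes only Fkbp5 was a member, lower by 1.32 and 1.27.

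The remaining pathway lists held few such genes. Traf1, an adaptor of TNF receptors, and Bcl3 were higher among 19 NF-kB genes (Bcl3 was lost under 9 other settings), and Nfkbiz was lower. Cd40 was higher and the B cell survival factor Tnfsf13b lower among 16 genes of the lymphotoxin, TNF and RANK axis, the latter not called with replicate 2 as the only microglia array. The retinoic acid receptor gene Rara was higher among 19 retinoid and vitamin D genes, by 2.45 in TZM and 1.84 in DC. Matrix and protease genes went both ways (2 higher and 3 lower of 27), as did ion channels and transporters (1 and 3 of 22) and energy metabolism (3 and 2 of 22). Trpm2, a calcium channel opened by oxidative stress, was the channel that rose, at 8.01 ± 0.12 in TZM and 7.96 ± 0.14 in DC against 6.23 ± 0.20 in microglia. In the glycolytic pathway the phosphofructokinase gene Pfkp rose by 1.54 in TZM and 4.43 in DC, while hexokinase 2 (Hk2) fell by 1.41 and 1.57.

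Among the other marker lists, 4 of 21 macrophage core genes were lower in both and 0 higher, and 5 of 22 conventional DC markers were higher and 0 lower. Adgre1, which encodes F4/80, fell by 1.71 in TZM and 5.28 in DC, and Clec9a, a receptor for actin of dead cells, was at means of 4.81 in TZM, 10.97 in DC and 3.50 in microglia. Spic, Vcam1 and Timd4 were higher and Adgre1 lower among 10 markers of subcapsular and medullary macrophages, and Timd4, which binds phosphatidylserine, was lost without microglia replicate 2. Ccl19 was higher among 12 stromal markers. Single genes were lower among 8 plasma cell (Tnfrsf17), 10 plasmacytoid DC (Siglech), 14 neutrophil (Csf3r) and 12 choroid plexus (Ttr) markers. Of the 13 natural killer cell and 7 erythroid markers 0 moved in both. Of the 11 sort markers 4 were higher (the class II chains and Itgax) and 3 lower (Itgam, Fcgr1 and Cx3cr1).

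The difference between TZM and DC was not part of the rule, although it uses the same lymphoid arrays. Over all genes 1743 (8.74%) were called between TZM and DC, and 19.7% of those that reached the level of 6. Among the genes higher in both, 45 were called higher in TZM, 82 higher in DC and 242 were not called, so 34.4% differed between the lineages. Among those lower in both, 94 were called higher in TZM, 11 higher in DC and 370 were not called, so 22.1% differed. Where TZM and DC were called apart, DC lay farther from microglia than TZM in most cases, in both directions. A gene that was not called is not shown to be equal. The 95% interval of the difference lay within 1 unit of 0 for 176 of the 369 and 303 of the 475. Among genes higher in both with a smaller difference of at least 3, the 5 most even were Kynu, Lrrc8c, Clec2i, Dnase1l3 and Cxcl9. TZM minus DC was 0.01 for Kynu (95% interval -0.45 to 0.47), -0.04 (-0.68 to 0.59) for Lrrc8c, a subunit of volume-regulated anion channels, and -0.12 (-0.42 to 0.19) for Dnase1l3. Among genes lower in both by at least 2 they were Sall1, Nav3, Csmd3, Klf12 and Jam2. Nav3, a neuron navigator protein, differed by 0.01 (-0.31 to 0.33) and Csmd3, a large membrane protein known from neurons, by 0.02 (-0.32 to 0.36).

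**Figure D5:**
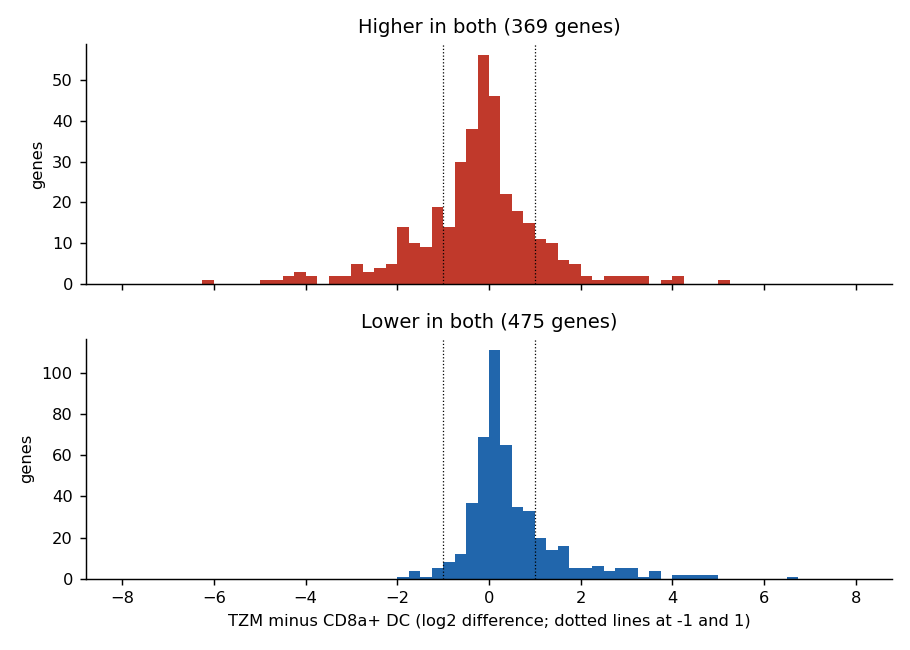
Number of genes (vertical axis) by the log2 difference of TZM from DC (horizontal axis) for the genes higher in both (upper panel) and lower in both (lower panel), with dotted lines at -1 and 1. The upper panel leans to the side where DC are higher (82 called, against 45) and the lower panel to the side where TZM are higher (94 called, against 11).

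The opposite pattern, in which the lymphoid populations lay on either side of microglia, was found for 52 genes (0.261%) with TZM higher and DC lower, and for 15 genes (0.0752%) with DC higher and TZM lower. These genes were left out by the rule. At the edge of the rule the differences were continuous. Just inside were Acvrl1 and Psmb8, at 1.0, and Msrb1 at 1.01, while Ube2l6 and D16Ertd472e, which round to 1.0, and Atp5mpl at 0.99 lay just outside. In the other direction Ddx3x and Nid2, at -1.0, and Egr1 at -1.01 were inside, and Clcn5, Btbd19 and Calcrl, which round to -1.0, were outside. Of these, Ddx3x was lost under 8 other settings, Nid2 under 6 and Msrb1 under 3.

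Some features that the rule did not use were examined after the values had been seen and are given as descriptions. Genes lower in both were long, with a median span of 37.5 kb on the chromosome, against 19.0 kb for genes higher in both, 23.7 kb for genes that reached the level of 6 and 17.7 kb for all genes. The span was long also among those with a smaller difference under 2 units (37.7 kb). Subunits of the respiratory chain tended the other way, as 10 of 86 (11.6%) were higher in both and 0 lower, with a median mean difference of 0.76. Over genes that reached the level of 6 the shares were 4.69% and 5.24%. Cox5a, of cytochrome c oxidase, was at 10.46, 10.77 and 10.38 in TZM, 9.97, 9.89 and 9.82 in DC, and 8.17, 8.30 and 8.44 in microglia, lowest in every microglia array. Proteins of mitochondrial ribosomes were higher in both for 5 of 77 (6.49%, near the 4.69%) and lower for 0, with a median of 0.52. Those of cytosolic ribosomes were higher for 2 of 59 (3.39%, under the 4.69%) and lower for 0. Their median was 0.56, so a median above 0 was not confined to mitochondrial genes. No median over the genes that reached the level of 6 was set beside these medians. Of 347 zinc finger genes with a Zfp symbol 0 were higher and 11 lower (3.17%, near the 2.38% of all genes), with a median of -0.20.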

How the data were processed

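The authors deposited log2 values per probe set, which the submitters' processing notes credit to RMA (robust multi-array average) in Expression Console 1.3.1. Of 35556 probe sets, 21789 carried 1 symbol in the platform annotation, and the brightest probe set of each gene gave 19938 genes, with values from 2.04 to 13.6 and array medians from 4.90 to 5.02. All 9 arrays entered 1 limma 3.58.1 fit (R 4.3.3) with group as the only term, and p-values were adjusted by Benjamini-Hochberg over all genes. No detection call was used. The genes, the 53 lists and the tests were chosen with earlier results of these data known. Named genes were the 20 leading in each direction, up to 4 per list and the 5 most even. Those at the minimum, gate genes and called markers were named too. Predicted genes were passed over, and the 20 leading were taken only without overlap between lymphoid and microglia arrays. Tested on simulated data, the rule recovered 96% of 50 genes raised by 1.5 and all of 50 lowered by 1.5. It gave 0 false members among the genes left unchanged. Those genes had the same mean in all groups and independent noise, so a false member was hardly possible. Genes changed in 1 lineage alone and a deviating microglia array were not simulated. Promoters, names and positions came from RefSeq (GRCm38.p6). Alternatives covered filtering, centring, normalization, probe sets, spread, array weights, the replicate number and each array left out. The number of arrays limits the precision.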

Additional observations from a re-analysis of the deposited data

Results flagged for a closer look

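Genes for which TZM and DC were called on opposite sides of microglia, with a called difference between them, were singled out. Where TZM were higher and DC lower, the difference of TZM from DC was 4.67 for Apobec1, a cytidine deaminase, 4.59 for the matrix protease Mmp2, 4.16 for Lrmda, 5.47 for Rgl1, an effector of Ras-like GTPases, and 4.02 for the semaphorin receptor Nrp2. Nrp2 read 8.41, 8.09 and 8.40 in TZM, 4.33, 4.37 and 4.15 in DC, and 6.39, 6.38 and 6.39 in microglia, with no overlap. Where DC were higher and TZM lower, it was -3.40 for Mctp1, -3.10 for Il1b, the inflammatory cytokine, -3.32 for Plpp1, a lipid phosphatase, -2.74 for Mpp6 and -2.79 for the kinase Camk1d. Il1b was at 8.70, 7.86 and 8.43 in TZM, 11.47, 11.38 and 11.43 in DC, and 10.40, 9.30 and 9.71 in microglia.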

How the results depend on the processing

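With no minimum fold change 1106 genes were higher and 1251 lower in both, 2594 were higher and 2287 lower on the mean, and 948 members differed between TZM and DC. With every probe set tested, 795 were lower in both and 1329 lower on the mean, where more features were tested. Leaving out 1 array at a time gave 350 to 393 genes higher and 436 to 497 lower in both, 872 to 936 higher and 765 to 822 lower on the mean, and 225 to 233 members that differed between TZM and DC. Same-numbered arrays did not deviate together (correlations from -0.145 to 0.128), so the numbers were not taken as pairs; with a replicate block the counts were 364 and 472 in both, 899 and 787 on the mean, and 228. An alternative chosen after seeing the data kept only microglia replicate 2, whose spread was then taken from the other groups: 398 genes were higher and 409 lower in both, and 307 of the 369 and 361 of the 475 were members as before. Of 161 named members 131 were never lost. Quantile normalization gave 341 higher and 506 lower. No gene named reversed its direction in the settings run. Low levels also limit the reading, since 73 of the 475 genes lower in both did not reach the level of 6 in 3 arrays.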
